A study of Rattus norvegicus with 13 samples.

Results

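The ligands and receptors of the tumor necrosis factor (TNF) superfamily examined here were 10 genes, chosen by symbol: the ligands Tnf, Tnfsf9, Tnfsf11, Tnfsf12 and Tnfsf13b, and the receptors Tnfrsf1a, Tnfrsf1b, Tnfrsf11b, Tnfrsf12a and Fas. A probe set was used where the array's annotation gave it to a single gene and that gene was one of the 10. By this rule, 9 of the 10 genes were measured by 13 probe sets, of 14217 genes with a probe set of their own and 31042 probe sets other than controls. No probe set carried Tnfsf13b alone, and that ligand was not analysed here.

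RNA levels were measured on Affymetrix rat genome arrays, 1 array per flask, in articular chondrocytes at second passage, isolated from femoral heads of rats (male Wistar, 2 months old). In cultures treated with glucosamine and IL-1β (n = 4), 20 mM glucosamine was present for 20 hours in all, of which the last 14 hours were with 10 ng/ml IL-1β. In cultures treated with IL-1β alone (n = 4), the same dose was present for 14 hours. Cultures with glucosamine alone received 20 mM for 20 hours (n = 2), and untreated cultures received neither agent (n = 3). All flasks were seeded from 1 pool of cells, so the spread between arrays is one between flasks and not between animals, and these monolayers are passaged cells outside their matrix. Bulk RNA cannot tell fewer cells of a type from less RNA per cell.

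TNF superfamily ligands are mostly membrane proteins that act as trimers and can be shed in soluble form. Their receptors fall into those with an intracellular death domain, such as TNF receptor 1 (Tnfrsf1a) and Fas, which can recruit caspases, those that bind TRAF adaptors, such as TNF receptor 2 (Tnfrsf1b) and Fn14 (Tnfrsf12a), and secreted decoys, such as osteoprotegerin (Tnfrsf11b). In joints, TNF and IL-1β are leading catabolic cytokines of cartilage, both act largely through the transcription factors NF-κB and AP-1, and the balance of RANKL (Tnfsf11) and osteoprotegerin governs the formation of osteoclasts.

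The sequence upstream of the RefSeq transcription start (assembly GRCr8) was at hand for 7 of the 10 genes. It is shown for Tnf and Tnfrsf1b, the ligand and the receptor with the largest rise with IL-1β among these genes, and for Fas, whose RNA fell with glucosamine. Each runs 5′ to 3′ on the gene's strand over 250 bases that end at position -1, just before the start. Capitals mark the motifs found, which were searched on both strands: TGANTCA, a loosened element of AP-1, TATAAA, the TATA box, and the consensus site of NF-κB. The AP-1 element has G or C at its center, and TGANTCA takes any base there.
Tnf, chr20:3626435-3626684, plus strand: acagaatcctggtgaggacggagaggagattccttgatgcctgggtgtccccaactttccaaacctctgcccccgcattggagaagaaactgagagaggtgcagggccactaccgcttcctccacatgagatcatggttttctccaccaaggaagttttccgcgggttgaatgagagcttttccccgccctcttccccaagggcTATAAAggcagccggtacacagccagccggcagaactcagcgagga
Tnfrsf1b, chr5:162387412-162387661, minus strand: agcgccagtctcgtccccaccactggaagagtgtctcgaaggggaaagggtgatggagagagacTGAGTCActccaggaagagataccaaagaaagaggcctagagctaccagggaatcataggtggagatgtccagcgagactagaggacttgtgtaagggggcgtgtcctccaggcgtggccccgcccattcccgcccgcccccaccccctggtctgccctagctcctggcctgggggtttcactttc
Fas, chr1:241211905-241212154, plus strand: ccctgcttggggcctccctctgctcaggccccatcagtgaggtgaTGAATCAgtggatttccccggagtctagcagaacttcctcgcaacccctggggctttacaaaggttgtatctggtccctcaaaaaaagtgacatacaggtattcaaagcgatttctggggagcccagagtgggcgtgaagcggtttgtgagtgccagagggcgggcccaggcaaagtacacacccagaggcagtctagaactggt
The Tnf window held TATAAA from position -46 to -41. The Tnfrsf1b window held TGAGTCA from -186 to -180. The Fas window held TGAATCA from -205 to -199, which has A at its center and matches the loosened element alone. Of all 33469 rat promoters of this length, 6.34% held TGANTCA, 12.9% held TATAAA and 3.54% held the NF-κB consensus. Of the 7 windows of these genes, 2 held TGANTCA (Fas and Tnfrsf1b), 2 held TATAAA (Tnf and Tnfsf11) and 0 held the NF-κB consensus. The motifs did not overlap, and no measurement here bears on binding to them.

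Signals are the deposited values on a linear scale. Values under 5.71, the 25th percentile of all signals and called the floor here, were raised to it before taking log2, so a fold against a group with an array there is a lower bound. The arrays had mean signals of 127 to 145. The fourth array (replicate d) of both IL-1β groups stood apart: their 1st percentile of signal was -36.8 to -31.0, against -6.47 to -4.81 on the other arrays, and 25372 to 25519 of their probe sets were above the floor, against 22130 to 23489. Where leaving out both arrays changed a call for a measured gene of the set, the value without them is given. Chondrocyte markers, summed over 6 measured genes, had signals of 5639 to 6790 with glucosamine and IL-1β, 5100 to 6187 with IL-1β alone, 7227 to 7570 with glucosamine alone and 9387 to 10630 in untreated cultures. The collagen gene Col2a1 and Acan, which encodes aggrecan, were measured in every group, Acan at 35.1 ± 3.5 with IL-1β alone and 240.2 ± 13.7 in untreated cultures (SD, n = 4 and 3). The 6 leukocyte and macrophage markers summed to 336.6 to 387.8 with both agents, 524.6 to 608.3 with IL-1β alone, 273.5 to 341.2 with glucosamine alone and 240.2 to 263.2 in untreated cultures. Of these, Cd68 averaged 187.7 ± 39.3 with IL-1β alone and was below 0 on all untreated arrays, whereas the leukocyte marker Ptprc averaged 8.2 ± 1.2 and 5.1 ± 1.4, and Itgam 1.4 ± 2.4 and 0.9 ± 1.7 (SD, n = 4 and 3). Cd14, another of the 6, averaged 357.0 ± 27.0 and 234.9 ± 10.6 in the same groups. Cd68 also read 31.9 and 37.4 with glucosamine alone, where Tnfrsf1b was under the floor. The part of leukocyte RNA in the results for Tnf and Tnfrsf1b, which like Cd68 averaged highest with IL-1β alone, was not tested. Of the 3 osteoblast markers measured, Bglap was at the floor on every array. In untreated cultures Alpl averaged 45.8 ± 0.9 and Ibsp 20.4 ± 2.8 (SD, n = 3). There the 4 fibroblast markers summed to 8068 to 9265 and the 3 osteoclast markers measured to 499.0 to 532.2. Of these 3, Acp5 averaged 214.6 ± 6.8 and Ctsk 296.7 ± 6.1, whereas Calcr averaged 3.0 ± 4.3 (SD, n = 3).

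In response to IL-1β alone, 4 of the 9 measured genes passed the test against untreated cultures: RNA for Tnf, Tnfrsf1b and Tnfrsf12a was higher and RNA for Tnfrsf1a was lower. Of all 29263 probe sets tested, 24.1% were called in this comparison, 11.1% higher and 13% lower. Glucosamine alone changed Tnfrsf12a, which was higher, and Fas, which was lower, 2 of 9 against 14.7% of all probe sets (7.14% higher and 7.56% lower). With both agents, 4 of 9 differed from untreated cultures, Tnfrsf12a being higher and Tnfrsf11b, Tnfrsf1a and Fas lower, against 23.9% of all (11.5% higher and 12.4% lower). Against IL-1β alone, cultures with both agents had lower RNA for Tnfrsf11b, Tnfrsf1b and Fas, 3 of 9 against 23.3% of all (11.9% higher and 11.4% lower). With the replicate letter as a block, Tnf and Tnfsf11 were also called lower, 5 of 9 against 31.4% of all. That fit treats arrays of the same letter as pairs, which the labels do not state. Against glucosamine alone, Tnfrsf11b was the single call, which was lower, where 1.79% of all probe sets were called (0.933% higher and 0.861% lower). The response to IL-1β with glucosamine was below that without it (the interaction) for Tnfrsf11b, Tnfrsf1b and Tnfrsf12a, 3 of 9 against 8.54% of all (3.98% above and 4.57% below). These counts use 1 probe set per gene, the one with the highest mean signal. Counted by any probe set, Tnf joined the genes called for both agents against IL-1β, Fas those for IL-1β against untreated cultures, and both those for the interaction. The 6 comparisons come from 1 limma fit and share groups, and a call is an adjusted p (Benjamini-Hochberg over all probe sets) below 0.05.

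**Figure D1:**
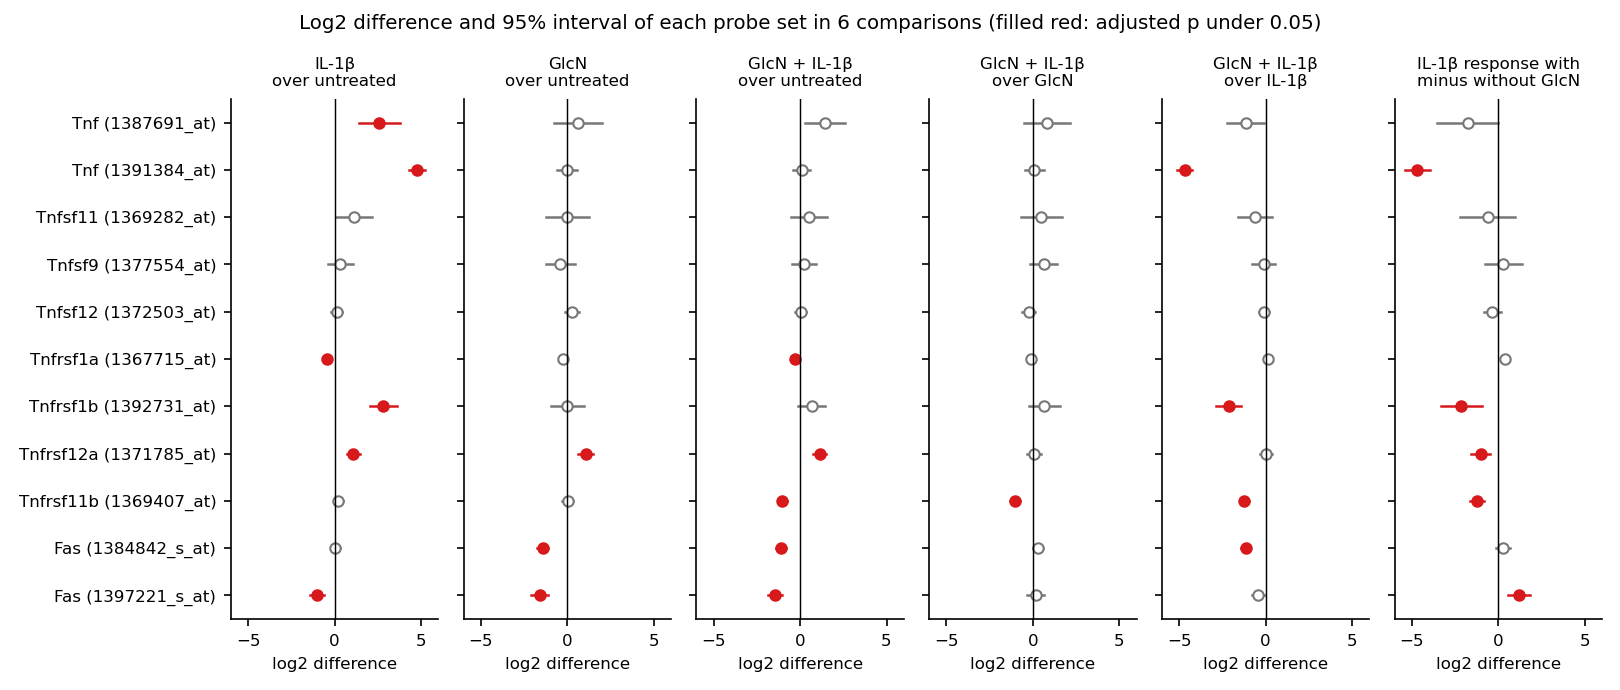
Log2 difference (points) with its 95% interval (lines) for 11 probe sets of the 9 measured genes in 6 comparisons, the group named first over the group named second; GlcN is glucosamine, and filled red points passed the test. Tnf and Tnfrsf1b are far to the right for IL-1β over untreated cultures, Tnfrsf12a is to the right in all 3 comparisons with untreated cultures, and Tnfrsf11b is to the left wherever cultures with both agents come first.

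Tnf encodes TNF itself, the founding ligand of the family. Its probe set 1387691_at had signals of 20.5, 23.1, 24.3 and 97.7 with glucosamine and IL-1β, 43.9, 75.4, 63.5 and 127.6 with IL-1β alone, 24.4 and 13.7 with glucosamine alone, and 11.5, 10.3 and 14.5 in untreated cultures. All IL-1β arrays lay above all untreated ones, and the array of replicate d was the highest of both IL-1β groups. IL-1β alone raised the signal 6.01-fold over untreated cultures (log2 fold change 2.59, SE 0.53, adjusted p = 0.0035). Cultures with both agents averaged 41.4 ± 37.5 against 77.6 ± 35.8 with IL-1β alone (SD, n = 4 each), a log2 difference of -1.14 (SE 0.49, adjusted p = 0.13) that passed the test with the replicate block (-1.14, adjusted p = 0.012) and without both arrays of replicate d (-1.40, adjusted p = 0.0026). The log2 difference of both agents from untreated cultures was 1.44 (adjusted p = 0.076) and the interaction -1.76 (adjusted p = 0.29), and without both arrays of replicate d they were 0.91 (adjusted p = 0.023) and -2.01 (adjusted p = 0.0075).

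The other Tnf probe set, 1391384_at, gave the sharper contrast. Its signals were 0.9, 3.9, 7.2 and -0.2 with glucosamine and IL-1β and 174.6, 156.7, 119.3 and 174.3 with IL-1β alone, and between -1.2 and 1.4 on all 5 arrays without IL-1β. IL-1β arrays without glucosamine thus stood apart from all others, and 1 array with both agents was just above the floor. The signal with IL-1β alone was at least 27.0-fold higher than in untreated cultures (log2 fold change 4.76, SE 0.22, adjusted p = 2.5e-08). With both agents it was at least 25.5-fold lower than with IL-1β alone (log2 fold change -4.68, SE 0.20, adjusted p = 3e-08). The interaction was also -4.68 (adjusted p = 5.7e-06). It repeats that difference, since all arrays without IL-1β were set to the floor. Both probe sets of Tnf were higher with IL-1β alone, but on 1387691_at the signal with both agents was above the floor on every array and on 1391384_at it was not. Levels of different probe sets are not compared, and the transcripts that each detects were not examined here.

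RANKL, the product of Tnfsf11, was near the floor. Its probe set 1369282_at read -0.6, 4.1, 7.8 and 16.7 with glucosamine and IL-1β, 6.9, 10.0, 10.96 and 30.7 with IL-1β alone, 4.1 and 3.5 with glucosamine alone, and 5.0 or less in untreated cultures. Every array with IL-1β alone was above the floor, 2 of 4 with both agents were, and none without IL-1β was. The log2 fold change for IL-1β alone over untreated cultures was 1.11 (SE 0.48, adjusted p = 0.13), and it was 0.67 without both arrays of replicate d, which passed the test (adjusted p = 0.013). For both agents against IL-1β alone it was -0.61 (adjusted p = 0.44, 0.009 with the replicate block), and -0.52 without both arrays of replicate d (adjusted p = 0.042). The second probe set, 1369281_at, had a log2 difference of 0.67 for IL-1β alone over untreated cultures (adjusted p = 0.34). For both agents against IL-1β alone it was -0.40 (adjusted p = 0.63). On this probe set, 2 of 4 arrays with IL-1β alone were above the floor.

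Tnfsf9 encodes 4-1BB ligand, a costimulator of T cells, and Tnfsf12 encodes TWEAK, the ligand of Fn14. Tnfsf9 read 29.7, 29.8, 31.1 and 59.8 with both agents, 32.8, 35.3, 29.4 and 66.5 with IL-1β alone, 25.3 and 21.6 with glucosamine alone, and 35.0, 28.6 and 29.5 in untreated cultures. The arrays with both agents, with IL-1β alone and of untreated cultures overlapped, replicate d being the highest of both IL-1β groups, and those with glucosamine alone were the lowest. Tnfsf12 read 127.5 to 195.6 with both agents, 147.4 to 213.4 with IL-1β alone, 180.6 and 211.4 with glucosamine alone, and 155.8 to 167.8 in untreated cultures. Neither was called in any of the 6 comparisons. For IL-1β alone over untreated cultures the 95% interval of the log2 difference was -0.38 to 1.03 for Tnfsf9 and -0.22 to 0.44 for Tnfsf12.

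**Figure D2:**
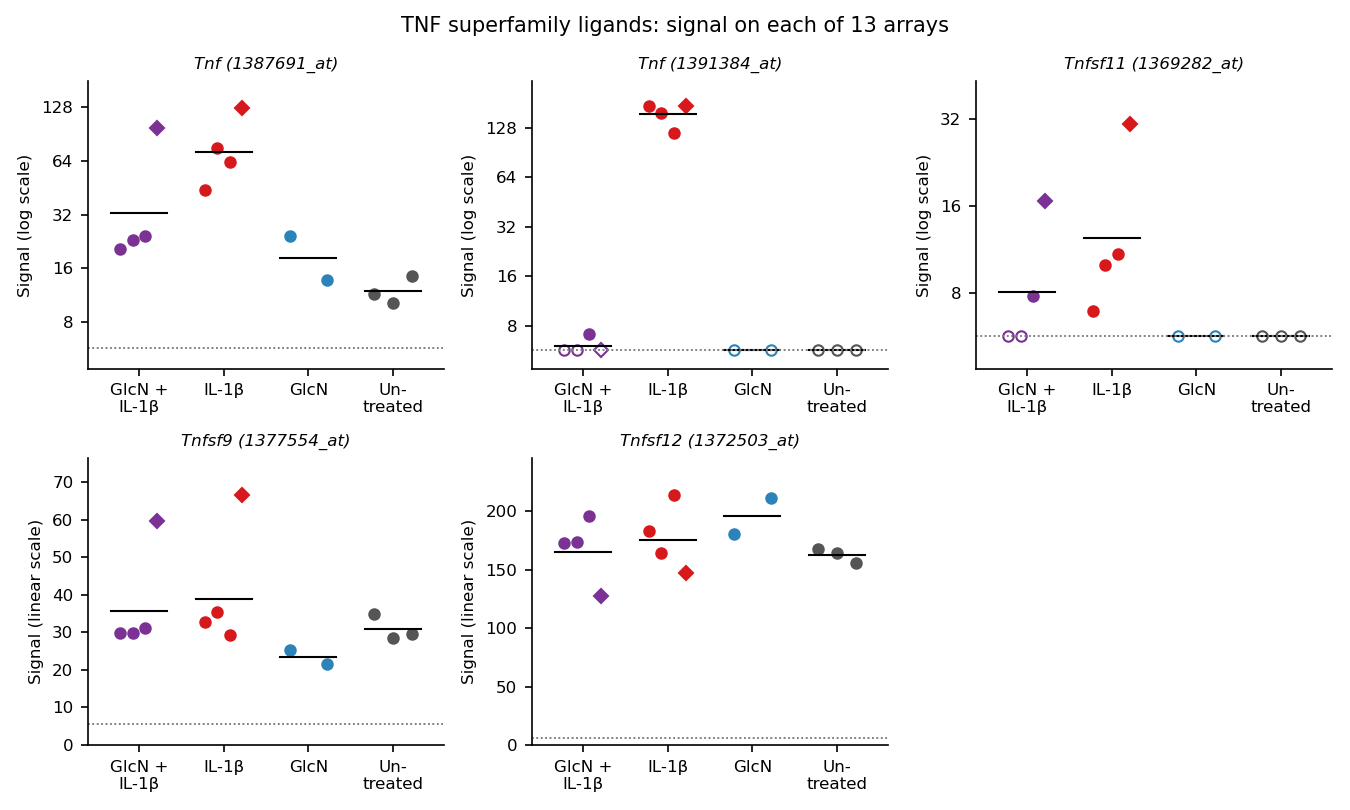
Signal of each of 5 ligand probe sets on 13 arrays, by group (GlcN is glucosamine); diamonds are the replicate d arrays, open symbols are values at or under the floor of 5.71 (dotted line) drawn at it, black bars are geometric means of the floored values, and each axis states whether it is linear or log. IL-1β arrays without glucosamine stand above untreated arrays for both Tnf probe sets, and on 1391384_at the cultures with both agents lie at or next to the floor.

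Tnfrsf1b, TNF receptor 2, is the receptor of TNF without a death domain. It read 13.1, 10.6, 8.7 and -1.4 with glucosamine and IL-1β, 21.3, 44.0, 53.8 and 51.0 with IL-1β alone, -0.3 and 2.7 with glucosamine alone, and -1.9, -3.0 and -0.1 in untreated cultures. It was above the floor only on arrays with IL-1β, and those with both agents lay below all with IL-1β alone. The signal with IL-1β alone was at least 7.01-fold higher than in untreated cultures (log2 fold change 2.81, SE 0.36, adjusted p = 0.00011). With both agents it was at least 4.40-fold lower than with IL-1β alone (log2 fold change -2.14, SE 0.33, adjusted p = 0.00055). The interaction was also -2.14 (adjusted p = 0.031). All arrays without IL-1β were set to the floor, so it repeats the difference just given and is no separate result. Its call was lost in 10 of 24 alternatives, 8 of which leave out a single array. The log2 difference of both agents from untreated cultures was 0.67 (adjusted p = 0.23), and 0.90 without both arrays of replicate d (adjusted p = 0.043).

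Tnfrsf1a, TNF receptor 1, is the death domain receptor that most cells carry and through which TNF does most of its signaling. It read 490.9, 510.1, 477.9 and 484.5 with both agents, 421.7, 419.0, 432.5 and 501.6 with IL-1β alone, 480.8 and 557.8 with glucosamine alone, and 604.1, 592.8 and 643.3 in untreated cultures. Untreated arrays were the highest and did not overlap with any other group. The signal was 1.39-fold lower with IL-1β alone (log2 fold change -0.47, SE 0.07, adjusted p = 0.00052) and 1.25-fold lower with both agents (log2 fold change -0.32, SE 0.07, adjusted p = 0.0071). For glucosamine alone the log2 difference was -0.24 (adjusted p = 0.098), which passed without both arrays of replicate d (adjusted p = 0.029). Both agents differed from IL-1β alone by 0.15 (adjusted p = 0.16) and the interaction was 0.39 (adjusted p = 0.053), and without both arrays of replicate d these were 0.22 (adjusted p = 0.023) and 0.46 (adjusted p = 0.0088). Both TNF receptors thus changed with IL-1β, Tnfrsf1b being higher and Tnfrsf1a lower.

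Tnfrsf12a encodes Fn14, the receptor of TWEAK, known as an early response gene to growth factors. It read 1090, 914.6, 975.8 and 721.6 with both agents, 782.1, 782.8, 1222 and 834.3 with IL-1β alone, 806.2 and 952.9 with glucosamine alone, and 417.4, 416.5 and 427.3 in untreated cultures. Every treated array was above every untreated one, and the 3 treated groups overlapped with each other. Against untreated cultures, the signal was 2.18-fold higher with both agents (log2 fold change 1.12, SE 0.17, adjusted p = 0.00035), 2.11-fold higher with IL-1β alone (log2 fold change 1.08, SE 0.17, adjusted p = 0.00045), and 2.08-fold higher with glucosamine alone (log2 fold change 1.06, SE 0.20, adjusted p = 0.0033). Without the second glucosamine array the last of these had an adjusted p of 0.051. Both agents together differed from glucosamine alone by 0.06 on the log2 scale (95% interval -0.35 to 0.48) and from IL-1β alone by 0.04 (-0.29 to 0.38). The interaction of -1.02 (SE 0.25, adjusted p = 0.027) was not called when any glucosamine or untreated array was left out, with adjusted p up to 0.15.

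Tnfrsf11b encodes osteoprotegerin, the secreted decoy that binds RANKL. It read 886.2, 892.4, 867.5 and 598.5 with glucosamine and IL-1β, 2064, 1851, 1917 and 1705 with IL-1β alone, 1636 and 1634 with glucosamine alone, and 1563, 1642 and 1665 in untreated cultures. Cultures with both agents were below all others, while arrays with glucosamine alone lay within the range of untreated cultures and those with IL-1β alone above it. With both agents the signal was 2.35-fold lower than with IL-1β alone (log2 fold change -1.23, SE 0.12, adjusted p = 1.3e-05), 2.04-fold lower than with glucosamine alone (log2 fold change -1.03, SE 0.14, adjusted p = 0.0027), and 2.03-fold lower than in untreated cultures (log2 fold change -1.02, SE 0.13, adjusted p = 9.4e-05). The comparison with glucosamine alone was not called in a fit of those 2 groups (adjusted p = 0.098). The log2 difference from untreated cultures was 0.21 for IL-1β alone (95% interval -0.07 to 0.49, adjusted p = 0.29, and 0.0053 without both arrays of replicate d) and 0.01 for glucosamine alone (-0.32 to 0.34). The interaction was -1.24 (SE 0.19, adjusted p = 0.0015) and was called in all 24 alternatives.

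Fas, the death domain receptor of Fas ligand, is a classical trigger of apoptosis. Its probe set 1384842_s_at read 125.3, 153.9, 157.9 and 126.7 with both agents, 304.4, 343.1, 298.8 and 301.4 with IL-1β alone, 134.9 and 94.7 with glucosamine alone, and 311.9, 303.8 and 289.9 in untreated cultures. The 6 arrays with glucosamine lay below all 7 arrays without it, whether or not IL-1β was present. The signal was 2.67-fold lower with glucosamine alone than in untreated cultures (log2 fold change -1.42, SE 0.15, adjusted p = 5e-05), 2.15-fold lower with both agents than in untreated cultures (log2 fold change -1.11, SE 0.12, adjusted p = 3.8e-05) and 2.22-fold lower with both agents than with IL-1β alone (log2 fold change -1.15, SE 0.11, adjusted p = 1.7e-05). IL-1β alone differed from untreated cultures by 0.05 on the log2 scale (95% interval -0.22 to 0.31).

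A second Fas probe set, 1397221_s_at, read 20.1, 18.6, 20.7 and 17.6 with both agents, 21.0, 28.6, 29.1 and 24.9 with IL-1β alone, 17.6 and 17.0 with glucosamine alone, and 49.2, 56.3 and 51.3 in untreated cultures. Here all treated arrays were below the untreated ones, those with IL-1β alone included. Both probe sets were lower with glucosamine alone (log2 fold change -1.60 on this one, adjusted p = 0.00053). Their calls differed for IL-1β alone against untreated cultures, where this one was 2.03-fold lower (log2 fold change -1.02, SE 0.19, adjusted p = 0.0018), and for both agents against IL-1β alone, where its log2 difference was -0.42 (SE 0.18, adjusted p = 0.12). They also differed for the interaction, which was 1.18 here (adjusted p = 0.025) and 0.26 on 1384842_s_at (adjusted p = 0.63). The interaction on this probe set was called in 15 of 23 alternatives, and was lost under quantile normalization and without any 1 array of glucosamine alone or untreated cultures or replicate a or c of both agents, with adjusted p up to 0.46. The third probe set, 1369900_at, read 12.5 or less on every array. Probe sets with this _s ending can match more than 1 transcript, and which Fas transcripts each detects was not examined here.

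**Figure D3:**
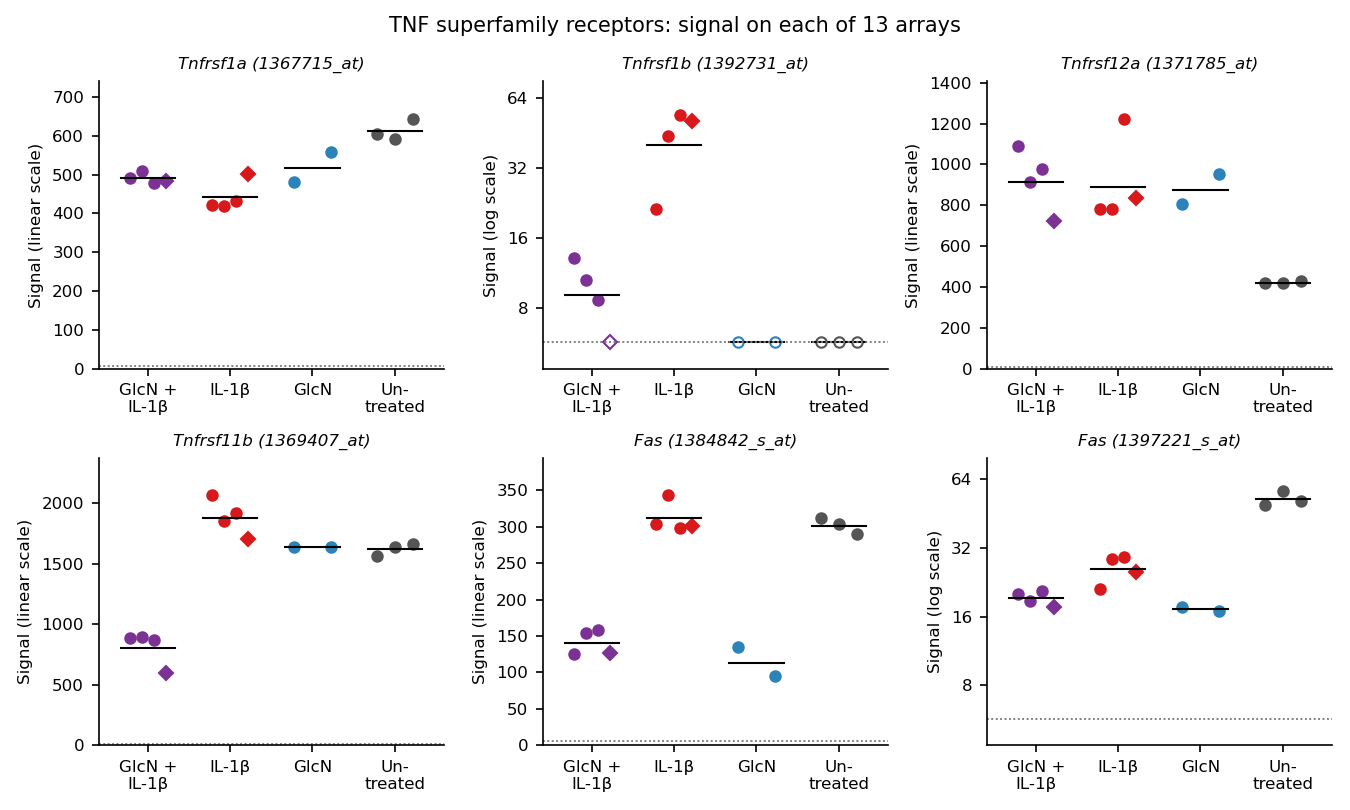
Signal of each of 6 receptor probe sets on 13 arrays, by group (GlcN is glucosamine); symbols, bars and the dotted floor are as in the plot of the ligands, and each axis states whether it is linear or log. Tnfrsf1b is high with IL-1β alone, Tnfrsf12a is low in untreated cultures only, Tnfrsf11b is low with both agents only, and Fas (1384842_s_at) is low on all 6 arrays with glucosamine.

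The genes most like each of these were taken from Pearson's r of log2 signal over the 13 arrays, as a description that also holds the differences between groups. For Tnfrsf1b they were Klk8, Rcl1 and Rgs3 (r of 0.96 to 0.97), for Tnfrsf12a Slc48a1, Stk24 and Pdcd6ip (0.97), for Tnfrsf11b Ints6, Prkar2b and Strbp (0.93 to 0.94), for Tnfrsf1a Pgghg, Plagl1 and Pcbp4 (0.95 to 0.97) and for Fas Cdk1, Marchf3 and Spc25 (0.98). Cdk1 and Spc25 encode proteins of mitosis, the kinase that drives entry into it and a kinetochore subunit. Tnf was most like Amz2, Grpel2 and Sp140 (0.96 to 0.97) and Tnfsf12 most like Dclre1a, Phldb1 and Vwa8 (0.90 to 0.92, and 0.79 to 0.87 over the 11 arrays other than replicate d). The r of Tnfsf9 with Itpr2, Kif5a and Rab7b (0.96 to 0.97) was 0.84 to 0.87 over those 11 arrays, and that of Tnfsf11 with Paqr5, Spata21 and Fsd2 (0.98) was 0.86 to 0.91.

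Of 13 other ligands of the superfamily, 8 were measured, and with IL-1β alone 1 of them was called against untreated cultures, Ltb, which encodes lymphotoxin beta and was at least 3.64-fold higher (log2 fold change 1.87, adjusted p = 2.4e-05). The median log2 fold change of the 8 was 0.38, against 0.10 over all probe sets, of which 24.1% were called. With both agents, Ltb was at least 3.37-fold lower than with IL-1β alone (adjusted p = 2.8e-05). Tnfsf13, which encodes APRIL, was the other call, 1.61-fold lower with both agents than with IL-1β alone (adjusted p = 0.00075). In that comparison 11.4% of all probe sets were called lower and 11.9% higher.

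Of 21 other receptors, 14 were measured, and with IL-1β alone 4 were higher and 1 lower than in untreated cultures, with a median of 0.39, where 11.1% of all probe sets were called higher and 13% lower. Tnfrsf9, the receptor 4-1BB, averaged 227.7 ± 50.7 with IL-1β alone and 12.1 ± 1.3 in untreated cultures (SD, n = 4 and 3), 18.6-fold higher (adjusted p = 7.4e-08). Cd40, a costimulatory receptor that signals through TRAF adaptors, averaged 68.2 ± 3.7 with IL-1β alone and was under the floor in untreated cultures, at least 11.9-fold higher (adjusted p = 1.3e-07). The others called were Relt and Tnfrsf26, higher, and Tnfrsf21, lower. Both Cd40 and Tnfrsf9 were lower with both agents than with IL-1β alone. Cd40 averaged 5.5 ± 1.9 with both agents, at least 10.9-fold below IL-1β alone (adjusted p = 1.6e-07), whereas Tnfrsf9 averaged 81.2 ± 18.1 (SD, n = 4 each), 2.81-fold lower (adjusted p = 0.00025) and still 6.82-fold higher than with glucosamine alone (adjusted p = 0.00015). Tnfrsf9 was the 1 of 14 called between cultures with both agents and those with glucosamine alone. Of all probe sets, 1.79% were called in that comparison (0.933% higher). Tnfrsf26 was higher with glucosamine alone than in untreated cultures (log2 fold change 1.33, adjusted p = 0.0012), as it was with IL-1β alone (0.93, adjusted p = 0.002).

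Among 23 measured of 24 genes of receptor-proximal signaling, 9 were higher and 3 lower with IL-1β alone than in untreated cultures (median 0.35, against 0.10 over all probe sets, of which 11.1% were higher and 13% lower). The largest rises were in Tnfaip3, which encodes the deubiquitinase A20 that restrains NF-κB signaling (log2 fold change 4.77, adjusted p = 5e-07), Birc3, which encodes the ubiquitin ligase cIAP2 (3.57, adjusted p = 4e-09), and Traf1, a TRAF adaptor (2.89, adjusted p = 2.2e-06), and those lower were Tradd, Traf5 and Sharpin. With both agents, 5 of the 23 were higher and 7 lower than with IL-1β alone (median -0.10, against 0.03 over all probe sets, of which 11.9% were higher and 11.4% lower), the higher ones being Tradd, Fadd, Ripk3, Rbck1 and Sharpin. Tnfaip3 fell by 3.56 on the log2 scale against IL-1β alone (adjusted p = 4.3e-06), Traf1 by 1.76 (adjusted p = 8.3e-05) and Birc3 by 1.69 (adjusted p = 1.2e-06). A second Traf1 probe set, 1394415_at, had a log2 difference of -0.49 for IL-1β alone over untreated cultures (adjusted p = 0.34). With glucosamine alone, Ripk3, a kinase of necroptosis, was higher (log2 fold change 1.07, adjusted p = 0.00036) and Tank, a TRAF binding protein, lower (-0.90, adjusted p = 0.0031), 2 of 23 in all against 14.7% of all probe sets.

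Of 5 genes that control shedding of TNF and its receptors, 2 were higher with IL-1β alone than in untreated cultures: Adam17, which encodes the protease that sheds TNF (log2 fold change 1.03, adjusted p = 2e-04), and Rhbdf2, which encodes iRhom2, needed for its maturation (2.12, adjusted p = 1.8e-05). Over all probe sets 11.1% were higher in that comparison. Rhbdf2 was also higher with glucosamine alone (1.41, adjusted p = 0.0031), as was the inhibitor of that protease, Timp3 (0.59, adjusted p = 0.004). Of 4 further genes named for induction by TNF, apart from Tnfaip3 counted above, 2 were higher with IL-1β alone and 1 lower. Of all probe sets, 11.1% were higher and 13% lower. Tnfaip2 rose by 3.02 on the log2 scale (adjusted p = 2e-07) and Tnfaip6, which encodes the hyaluronan binding protein TSG-6, by 1.13 (adjusted p = 9e-06), while Tnfaip8, described as an inhibitor of caspases, fell by 1.08 (adjusted p = 0.00061). With both agents, the 3 were all lower than with IL-1β alone, where 11.4% of all probe sets were lower, Tnfaip2 having fallen by 2.88 (adjusted p = 2.4e-07). Tnfaip2, Tnfaip6 and Tnfaip8 were also lower with glucosamine alone than in untreated cultures, against 7.56% of all probe sets. Their log2 fold changes were -1.17, -1.28 and -1.84 (adjusted p = 0.0032, 3.8e-05 and 9.4e-05). Another Tnfaip2 probe set, 1375505_at, had a log2 difference of 0.38 for IL-1β alone over untreated cultures (adjusted p = 0.62).

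**Figure D4:**
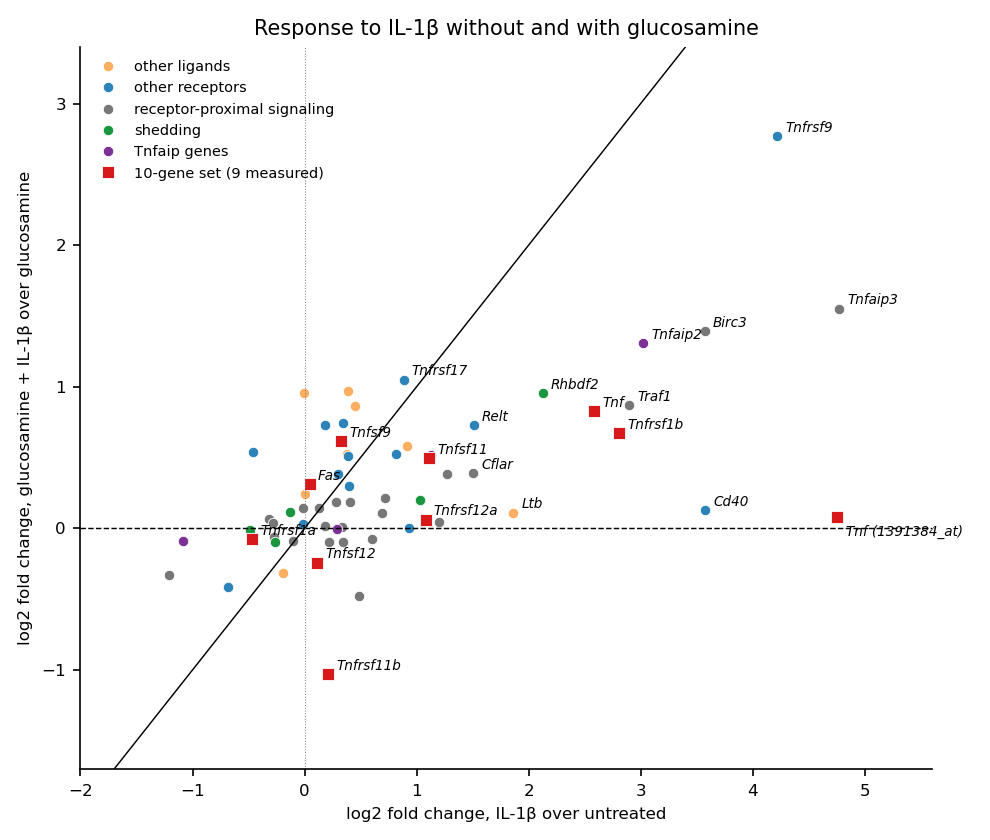
Each point is the probe set of 1 gene: the x axis is the log2 fold change of IL-1β alone over untreated cultures and the y axis that of glucosamine with IL-1β over glucosamine alone, with equal responses on the solid line and no response to IL-1β under glucosamine on the dashed line; red squares are the genes of the set and Tnf is drawn for both probe sets. Tnf (1391384_at), at 4.76 on the x axis, and Cd40, at 3.57, lie next to the dashed line, Tnfrsf9 lies at 4.22 and 2.77, and Tnfrsf11b is at -1.03 on the y axis.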

How the data were processed

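Affymetrix signals of 13 arrays, 1 per flask, were used as deposited. The intensities are linear, with some below 0. According to the methods, the authors generated cel files with Microarray Suite and derived expression values with Probe Profiler, globally scaled to 100; the submitters' processing notes name MAS5. The array means of 127 to 145 leave the scaling unsettled, and their 75th percentiles lay between 112 and 119, so none was added. RNA of arrays that failed quality control had been left out by the authors. Of 31042 probe sets other than controls, 20826 carried 1 gene in the platform's annotation, 436 several and 9780 none.

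Signals below 5.71, which is the 25th percentile over all arrays, were set to that value before log2 was taken. Tests were run on the 29263 probe sets above it on at least 1 array. All 4 groups entered 1 fit in limma 3.58.1 (R 4.3.3; lmFit, eBayes with trend, 9 residual degrees of freedom), 2-sided, with Benjamini-Hochberg adjustment over all probe sets and a threshold of 0.05. The floor and the number of arrays limit the precision. The script was tested on simulated data.

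The members and gene lists were chosen with earlier results of these data known. All members were named, each represented by the probe set of highest mean signal, with the 3 most similar genes, and up to 4 called genes with the largest change per list. Alternatives were other floors, scalings, filters and variance models, fits of 2 groups, the replicate letter as a block, single arrays or both replicate d arrays left out, 1 probe set per gene, and the methods' analysis of variance with the Tukey test. Lists and similar genes without replicate d were added after seeing the data. Whether arrays of the same replicate letter deviated together was checked from the data, since the labels do not say that letters pair flasks. All 4 same-letter pairs of the IL-1β groups did (r of 0.375 to 0.797). For both agents against IL-1β alone, blocked values are given where the block changed the call of a measured member. Pairs of different letters among replicates a to c of these groups had r of 0.333 to 0.561, so pairing by letter was not shown. Over all groups, 7 of 16 same-letter pairs exceeded 0.1 (median r -0.06), as did 14 of 46 pairs of different letters (median r 0.05).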

Additional observations from a re-analysis of the deposited data

Results flagged for a closer look

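Of the 26 groups of 4 arrays of these probe sets, 9 held 1 array far from the rest, where chance gives about 1 in 20 groups. In 7 of the 9 that array was replicate d of an IL-1β group. Tnf (1387691_at) read 97.7 on replicate d with glucosamine and IL-1β, against 20.5 to 24.3 on the others. Tnfsf9 read 59.8 on replicate d with both agents, against 29.7 to 31.1, and 66.5 on replicate d with IL-1β alone, against 29.4 to 35.3. Tnfsf11 read 30.7 (1369282_at) on replicate d with IL-1β alone, against 6.93 to 10.96, and 12.1 (1369281_at) on replicate d with both agents, against 3.59 to 4.23. Tnfrsf11b was the one that was low there, at 598.5 on replicate d with both agents, against 867.5 to 892.4. Tnfrsf1a read 501.6 on replicate d with IL-1β alone, against 419.0 to 432.5. Away from these arrays, Tnfrsf12a read 1222 on replicate c with IL-1β alone, against 782.1 to 834.3, and Fas (1384842_s_at) read 343.1 on replicate b with IL-1β alone, against 298.8 to 304.4. What sets the replicate d arrays apart was not tested.

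By limma's test of the interaction, 8.54% of all probe sets were called. The response to IL-1β differed with and without glucosamine for 5 of the 13 probe sets of these genes (log2 scale, with glucosamine minus without). It was -4.68 for Tnf (1391384_at, adjusted p = 5.7e-06), -1.24 for Tnfrsf11b (adjusted p = 0.0015), -2.14 for Tnfrsf1b (adjusted p = 0.031), -1.02 for Tnfrsf12a (adjusted p = 0.027) and 1.18 for Fas (1397221_s_at, adjusted p = 0.025), where it was 0.26 on 1384842_s_at (adjusted p = 0.63). The call on 1397221_s_at was lost in 8 of 23 alternatives, that of Tnfrsf1b held in 14 of 24 and that of Tnfrsf12a in 19 of 24. For Tnf (1391384_at) and Tnfrsf1b, arrays without IL-1β were all set to the floor. Their interaction therefore repeats the difference of both agents from IL-1β alone. For Tnfrsf11b the difference came with a signal lower with both agents than in any other group, for Tnfrsf12a with a level raised by either agent alone, and for Fas with a level lowered by either agent alone on 1397221_s_at, which IL-1β alone did not lower on 1384842_s_at (log2 difference 0.05, adjusted p = 0.83).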

How the results depend on the processing

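No alternative reversed the direction of a fold change that had passed the test. By the methods' analysis of variance and Tukey test, run on linear signals with a threshold of 0.0001 for the analysis of variance, the measured genes called numbered 0 for IL-1β against untreated cultures (4 with limma), 1 for glucosamine (2 with limma) and 2 for both agents against untreated cultures (4 with limma), and that test did call the other probe sets of Tnf (1391384_at) and Fas (1397221_s_at) for IL-1β. Tnfrsf1a, Tnfrsf1b and Tnfrsf12a passed its Tukey step for IL-1β and missed the threshold of its analysis of variance, so test, scale and threshold all differ from those of limma. A fit of both agents and glucosamine alone without the other groups called 0 genes, against 1. Without both arrays of replicate d, both agents against IL-1β called 6 genes and the interaction 5, against 3 each, while the share of all probe sets called was also higher (34.6% and 15.4%). With the replicate block, 5 genes were called for both agents against IL-1β, against 3, and no other call of a measured member changed in that comparison. Leaving out single arrays, the counts ran from 1 to 3 for glucosamine against untreated cultures (1 without replicate b of glucosamine) and from 1 to 4 for the interaction (1 without replicate a of glucosamine or any 1 untreated array). For the Tukey test, the fit of 2 groups and the single arrays left out, no share of all probe sets called stands beside the counts. Those counts are therefore not read as particular to these genes. Quantile normalization set the median log2 fold change of IL-1β over untreated cultures to 0, against 0.10. Without replicate d, 4 of 12 other receptors were higher and 3 lower with both agents than with IL-1β, against 2 and 2 of 14, and 4 of 23 signaling genes were higher and 2 lower with glucosamine, against 1 each, while the share of all probe sets called for glucosamine was 25.7%, against 14.7%. Signals near the floor, of Tnfsf11, Tnfrsf1b and Tnf (1391384_at), allow bounds on folds alone. With floors from the 10th percentile to a signal of 32 and the other limma alternatives, the log2 fold change of Tnfrsf1b for IL-1β over untreated cultures ran from 0.47 to 5.67. That of Tnf (1391384_at) ran from 2.27 to 7.35, and both were called in each of these fits. The analysis of variance and Tukey test called Tnf (1391384_at) and not Tnfrsf1b, also for both agents against IL-1β alone. Tnf (1387691_at) lost its call for IL-1β with a floor at 32 (adjusted p = 0.055).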
